A study of Mus musculus with 4 samples.

Results

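The replication-dependent canonical histone genes were compared between pre-ALT and post-ALT cells, that is, before and after mouse embryonic stem cells (mESCs) without telomerase had switched to alternative lengthening of telomeres (ALT). The members are all genes whose symbol starts with Hist1h, Hist2h, Hist3h or Hist4h and carries no pseudogene suffix, a rule that uses no measured value and that found 69 of the 53379 genes of the files. They comprise 6 linker histone (H1) genes and 20 H2A, 18 H2B, 12 H3 and 13 H4 genes, of which 56 belong to the Hist1 group on chromosome 13, 10 to Hist2 on chromosome 3, 2 to Hist3 on chromosome 11 and 1 to Hist4 on chromosome 6. The Hist1 genes lie in a first block of 24 and a second of 31, with *Hist1h2al* apart from both, and all coordinates are those of GRCm38 (mm10). In the GENCODE M21 annotation 67 of them are protein-coding, and *Hist1h2aj* and *Hist1h2al* are pseudogenes in spite of their names.

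All libraries came from DKO741, a single Terc-/- line derived from E14 mESCs in which both alleles of the telomerase RNA gene were disrupted, so neither group holds telomerase-positive cells. PD100 stands for pre-ALT cells at population doubling 100 and PD800 for post-ALT cells at population doubling 800, the labels also speak of passages, and each group has 2 libraries described as biological duplicates of 1 line. Stocks were kept on mouse embryonic fibroblast feeders, and RNA was taken from feeder-free cultures. The expected count, RSEM's estimate of the read pairs from a gene, summed to between 32454121 and 38492149 per library, and the targeted gene *Terc* had 1 count in PD100 replicate 1 and 0 in the other 3 libraries.

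Canonical histone genes encode the proteins that package newly copied DNA, and they are transcribed mainly in S phase from clusters of short genes without introns. Their mRNA is unusual in that it ends, in place of a poly(A) tail, just after a short stem-loop, which the stem-loop binding protein SLBP holds and at which the U7 snRNP directs the cut. Several histone genes can also give polyadenylated transcripts, for instance in cells that have left the cycle, and a few testis variants are made during the formation of sperm.

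The stem-loop was searched in the annotated transcripts with the histone stem-loop consensus, a stretch of 16 bases. It was found after the stop codon in 46 of the 69 members (66.7%). Over all 21901 genes with a coding transcript, the members included, 99 had a match (0.452%). That wider count took a match anywhere in a transcript, so it is a looser measure. The first base of the stem-loop lay 21 to 58 bases after the stop codon, with a median of 31. The 46 matches took 8 forms, of which 3 made up most of them, and 1 example of each is shown here, with those of the called genes *Hist1h1t* and *Hist2h3c1*, as the coding strand of GRCm38 with the stem-loop in capitals and 7 bases on each side:
*Hist1h1d* (chr13:23555780-23555809, plus strand): ctcaaacGGCTCTTTTCAGAGCCacccaca
*Hist1h4h* (chr13:23531451-23531480, plus strand): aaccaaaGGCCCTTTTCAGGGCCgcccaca
*Hist1h3e* (chr13:23561896-23561925, minus strand): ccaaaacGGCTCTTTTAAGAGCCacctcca
*Hist1h1t* (chr13:23696518-23696547, plus strand): acccaaaGGCTCTTTTAAGAGCCacttaca
*Hist2h3c1* (chr3:96247320-96247349, plus strand): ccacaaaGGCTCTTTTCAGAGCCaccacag
The form in *Hist1h1d* was shared by 26 members, the form in *Hist1h4h* by 7, all of them H4 genes, and the form in *Hist1h3e* and *Hist1h1t* by 6. Of the 23 members without a match, 15 have at most 20 bases annotated after the stop codon, 2 have no annotated coding part and 6 have a longer annotated end. At the other extreme, 23 of the members with a stem-loop have more than 100 annotated bases beyond it, as in *Hist1h1d* with 4884 and *Hist4h4* with 2445, and reads from such a tail count towards the gene.

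In mESCs of either group the canonical histone genes were strongly expressed, and the small difference in their total changed sign with the scale. They took 0.998% of all counts in PD100 replicate 1 (95% Clopper-Pearson interval 0.994 to 1.00%), 0.989% in PD100 replicate 2 (0.986 to 0.993%), 0.923% in PD800 replicate 1 (0.920 to 0.926%) and 0.982% in PD800 replicate 2 (0.979 to 0.986%), intervals that cover counting error only. In CPM, which are counts scaled to a common library total with edgeR's TMM factors, the sum was 9512 and 9619 at PD100 against 9623 and 10201 at PD800. The highest PD100 library and the lowest PD800 library were next to each other, and the log2 ratio of PD800 to PD100 was 0.05. The sign of that ratio depended on the scale, being -0.06 without the TMM factors and -0.17 in TPM (RSEM's transcript level scaled for gene length). On both of those scales each PD800 library lay below each PD100 library. In TPM the sums were 17391 and 14880 at PD100 against 14396 and 14206 at PD800. The median of all tested genes was itself at -0.12 in TPM with a pseudocount of 1 and -0.21 with 0.1. In bulk RNA, fewer cells in S phase and less histone RNA per cell cannot be told apart.

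By type, the H1, H2B and H4 sums of both PD800 libraries lay between those of the PD100 replicates. The H1 genes, whose products bind the linker DNA between nucleosomes, summed to 1610 and 2401 CPM at PD100 against 1727 and 2004 CPM at PD800, a log2 ratio of -0.10. Without PD100 replicates 1 and 2 it was -0.36 and 0.21, and in TPM it was -0.51. The H2A genes summed to 1647 and 1341 CPM at PD100 against 1741 and 1782 CPM at PD800. They were the only type whose groups did not overlap in CPM. Their log2 ratio of 0.24 shrank to 0.02 in TPM and was 0.39 and 0.097 without PD100 replicates 1 and 2. The pseudogene *Hist1h2al* held 82.0 and 166 CPM of the PD100 sums and 118 and 158 CPM of the PD800 sums. The H2B genes, whose products pair with H2A in the nucleosome, summed to 1822 and 1197 CPM against 1768 and 1634 CPM, a log2 ratio of 0.17. That ratio was 0.51 without PD100 replicate 1, -0.099 without PD100 replicate 2 and -0.019 in TPM, so its direction was not fixed. The 2 remaining core types, whose products form the tetramer at the centre of the nucleosome, were the closest between groups in CPM but not in TPM. H3 gave 2063 and 2033 CPM against 2002 and 2209 CPM (log2 ratio 0.04, or -0.21 in TPM), and H4 gave 2369 and 2647 CPM against 2385 and 2571 CPM (log2 ratio -0.02, or -0.31 in TPM). In TPM the sums of H1, H3 and H4 were separate and lower in PD800 cells, while those of H2A and H2B overlapped. The sums are a description, and with each type as a single row of edgeR's test none of the 5 had an adjusted p under 0.01 and 0 had an unadjusted p under 0.05. Per length, H4 genes held 28.3 to 34.2% of the members' TPM in the 4 libraries and H1 genes 6.79 to 11.7%, shares that depend on annotated lengths such as the 7425 bases of *Hist1h1d*.

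**Figure D1:**
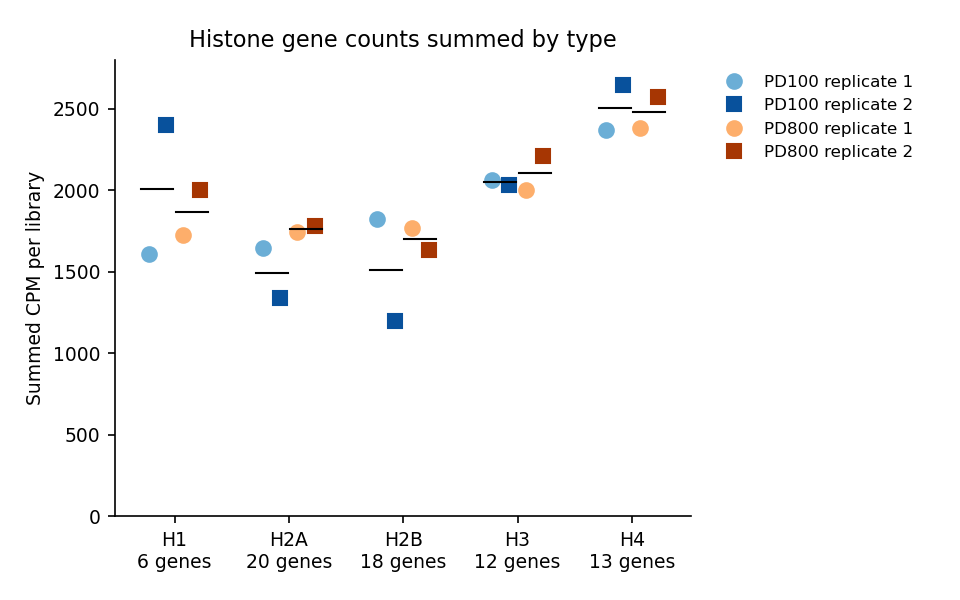
CPM summed over the canonical histone genes of each type (vertical axis) for H1, H2A, H2B, H3 and H4 (horizontal axis), with 1 point per library and black bars at the mean of the 2 libraries of a group. The PD100 points spread from 1197 to 1822 CPM for H2B and from 1610 to 2401 CPM for H1, and on this scale the groups are separate for H2A alone.

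Single genes were tested by edgeR's quasi-likelihood method across all 19148 genes that passed a filter on low counts, with Benjamini-Hochberg adjustment, and a gene was called where its adjusted p was under 0.01 and its change more than 2-fold. Of the 69 members 68 passed the filter. The exception, the pseudogene *Hist1h2aj*, had 4.31 and 6.42 counts at PD100 against 8.77 and 6.02 at PD800. Only *Hist2h2ab* and *Hist2h3c1* were called higher in PD800 cells, 2.94% of the tested members against 6.28% of all tested genes. *Hist1h1t*, *Hist1h2aa* and *Hist1h2ba* were called lower, 4.41% of the members against 8.81% of all tested genes. Without a limit on the fold change, 9 members had an adjusted p under 0.01 (13.2%, against 28.5% of all tested genes). CPM values of the groups did not overlap for 18 members (26.5%, against 73.7% of all tested genes). In this fit the members stood below the background on each of these counts. In limma on log2(TPM + 0.1), however, 2.94% were called higher against 2.37% of all tested genes. The any-fold count of 9 depended on the fit, being 19 (27.5%, against 25.9% of all tested genes) without the filter on low counts. Fits without 1 library moved the counts as well, but each leaves 1 library in a group and takes its spread from the other.

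The log2 fold changes of the tested members ran from -3.45 to 1.66 with a median of 0.07, against a median of 0.01 over all tested genes. For 51 of the 68 (75%) the 95% interval of the fold change lay inside 2-fold in both directions, so that a larger difference lay outside the interval, and the same held for 53.4% of all tested genes. With 2 libraries a group, the smallest p of an exact two-sided permutation test on a single gene is 0.333, so the values printed depend on edgeR's estimate of the spread over all genes.

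**Figure D2:**
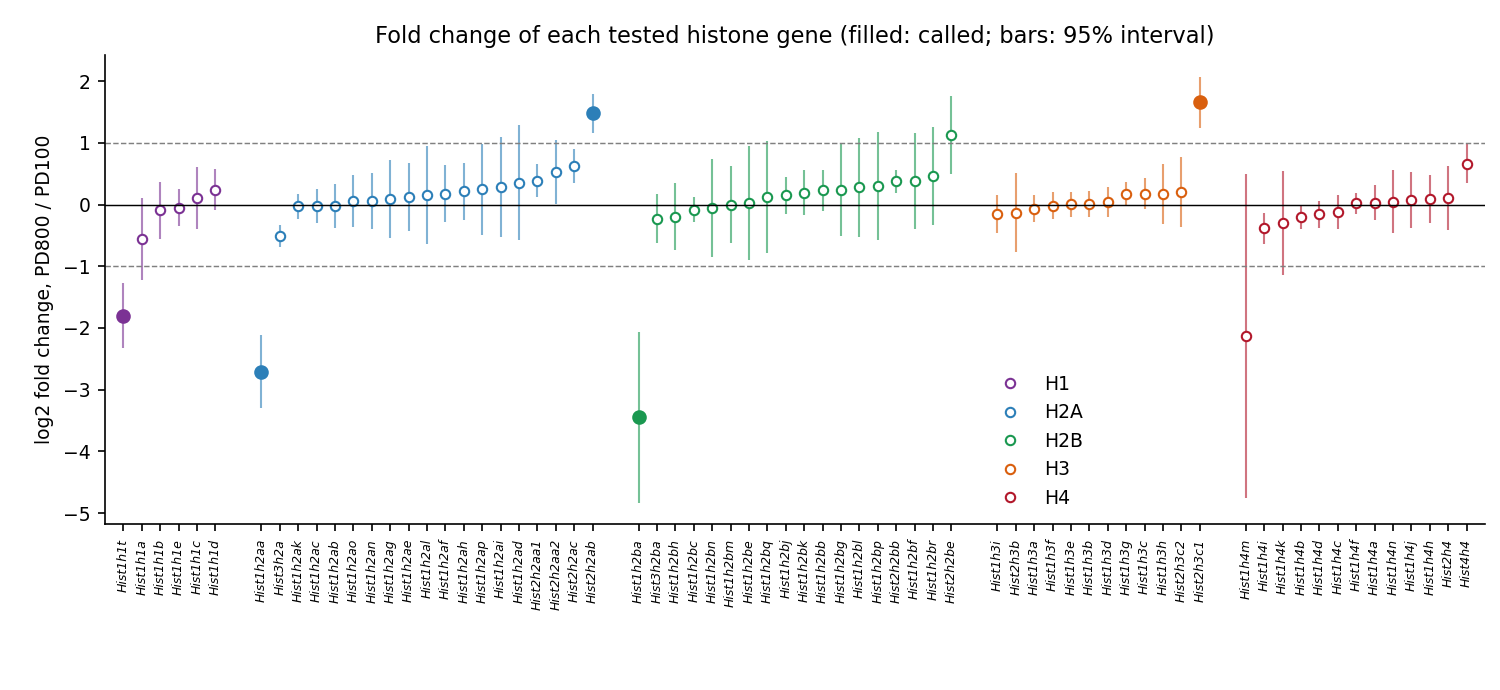
Log2 fold change of PD800 against PD100 (vertical axis) for the 68 tested canonical histone genes, ordered by type and then by value (horizontal axis), with 95% intervals as bars, filled points for the 5 called genes and dashed lines at a 2-fold change. Most points sit near 0, the called points reach from -3.45 for *Hist1h2ba* to 1.66 for *Hist2h3c1*, and the widest interval is that of *Hist1h4m*.

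The 3 genes called lower are the 3 known as testis variants, and all 3 were scarce. *Hist1h1t* (ENSMUSG00000036211.4, chr13:23695814-23696725) encodes the testis linker histone H1t, and it had 206 and 234 counts at PD100 against 60 and 58 at PD800. This was a log2 fold change of -1.80 (standard error, SE, 0.21, adjusted p = 0.00126 by edgeR's test with Benjamini-Hochberg adjustment). The other 5 H1 genes, which encode the somatic linker histones, did not pass the test, with adjusted p-values between 0.144 and 0.782. *Hist1h2aa* (ENSMUSG00000060081.1, chr13:23934462-23934851), the gene of testis H2A, had 200 and 197 counts at PD100 against 24 and 31.5 at PD800. Its log2 fold change was -2.71 (SE 0.24, adjusted p = 0.000473 by the same test). *Hist1h2ba* (ENSMUSG00000050799.3, chr13:23933773-23934156), the gene of testis H2B, had 136 and 58.7 counts at PD100 against 12.6 and 3.45 at PD800. Its log2 fold change was -3.45 (SE 0.57, adjusted p = 0.00431 by the same test), and its call was lost in limma on log2(TPM + 1), at -2.48 with an adjusted p of 0.0200, and on log2(TPM + 0.1), at -3.61 with an adjusted p of 0.0209. It was not tested where at least 10 counts were asked for in every library. The size of this change rested on the few PD800 counts, being -4.73 without PD800 replicate 1 and -2.82 without PD800 replicate 2. In these 3 genes the groups were separate, and the highest PD800 library lay below the lowest PD100 library. Their levels in PD100 cells, 6.06 ± 1.35, 5.42 ± 0.678 and 2.56 ± 1.14 CPM (SD, n = 2), compare with 681 ± 271 CPM for *Hist1h1a* (SD, n = 2), so they hardly touch the sum of their type. All windows of 1 read length were unique to the gene in *Hist1h1t* and *Hist1h2aa*, and 72.9% were in *Hist1h2ba*. An exon of *Gm44344* overlaps *Hist1h2aa* on the opposite strand.

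*Hist1h2aa* and *Hist1h2ba* stand head to head at the distal end of the second Hist1 block, with 305 bases between their starts, so that the same stretch of DNA lies upstream of both. To show what lies upstream of such pairs, the promoter is printed with motifs in capitals, beside that of *Hist2h2ac*, from a Hist2 pair in which neither gene was called. The motifs, searched on both strands so that capitals may show the reverse complement, were the CCAAT box, TATAAA for a TATA box, and TTTGCAT, the core of the octamer element. *Hist1h4h*, the H4 gene with the highest CPM and with none of the 3 motifs, is shown for contrast. Each is a RefSeq promoter of GRCm38.p6 from 250 bases before to 50 after the start:
*Hist1h2ba* (chr13:23934107-23934406, minus strand): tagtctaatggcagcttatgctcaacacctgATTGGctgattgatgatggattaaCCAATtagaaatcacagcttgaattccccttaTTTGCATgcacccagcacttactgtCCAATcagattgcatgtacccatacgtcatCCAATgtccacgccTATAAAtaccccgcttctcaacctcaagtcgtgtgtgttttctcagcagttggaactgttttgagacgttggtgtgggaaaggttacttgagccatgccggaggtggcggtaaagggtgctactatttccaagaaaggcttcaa
*Hist2h2ac* (chr3:96220831-96221130, minus strand): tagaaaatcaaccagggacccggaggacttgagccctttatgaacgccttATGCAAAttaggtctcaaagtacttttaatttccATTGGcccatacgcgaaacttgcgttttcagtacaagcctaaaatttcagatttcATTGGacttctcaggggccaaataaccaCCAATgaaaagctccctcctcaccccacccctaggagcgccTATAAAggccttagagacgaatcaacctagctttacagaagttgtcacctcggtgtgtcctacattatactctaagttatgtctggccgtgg
*Hist1h4h* (chr13:23530794-23531093, plus strand): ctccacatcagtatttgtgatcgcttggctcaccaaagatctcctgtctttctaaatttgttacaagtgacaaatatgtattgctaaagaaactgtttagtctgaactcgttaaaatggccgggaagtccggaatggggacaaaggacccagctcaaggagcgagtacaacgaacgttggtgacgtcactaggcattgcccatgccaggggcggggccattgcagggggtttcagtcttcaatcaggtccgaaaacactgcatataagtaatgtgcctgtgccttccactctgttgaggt
Promoters of 300 bases were found for 62 of the 69 members. CCAAT was present in 53 of the 62 (85.5%), against 37.4% of all 32851 promoters, and the split by type was sharp, with all 6 H1, 18 H2A, 16 H2B and 10 H3 promoters but only 3 of the 12 H4 promoters. TATAAA was present in 35 (56.5%, against 13.6% of all promoters). TTTGCAT was present in 14 (22.6%, against 4.63% of all promoters), namely in 7 of 18 H2A, 6 of 16 H2B and 1 of 12 H4 promoters and in no H1 or H3 promoter. Such matches describe the letters of the window and do not show binding.

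Head-to-head pairing of an H2A with an H2B gene was common among the members, with 13 pairs whose starts were 175 to 305 bases apart. In 12 pairs both genes were tested, and in all 12 the log2 fold changes had the same sign, with a median absolute difference of 0.06. The *Hist1h2ba* and *Hist1h2aa* pair differed most, by 0.74. For *Hist1h2bl* and *Hist1h2ai* both values were 0.28, and for *Hist1h2bf* and *Hist1h2ad* they were 0.38 and 0.35, neither past the test. The genes of a pair were read from the same libraries and share sequence with other pairs, so the likeness is a description.

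Both genes called higher lie in the Hist2 cluster on chromosome 3. *Hist2h2ab* (ENSMUSG00000063689.4, chr3:96219865-96220308), an H2A gene with 98.8% of its windows unique, had 229 and 193 counts at PD100 against 518 and 566 at PD800. In CPM this was 5.72 ± 0.0697 and 16.01 ± 2.27 (SD, n = 2), with a log2 fold change of 1.48 (SE 0.13, adjusted p = 0.000422 by edgeR's test with Benjamini-Hochberg adjustment). An annotated exon of *Gm15444* overlaps it on the opposite strand, and the counting is not stated to use strand. *Hist2h3c1* (ENSMUSG00000093769.4, chr3:96246685-96248509), an H3 gene, had 66.9 and 48.9 counts at PD100 against 182 and 156 at PD800, a log2 fold change of 1.66 (SE 0.17, adjusted p = 0.000747 by the same test). None of its windows is unique, since all of them also occur in *Gm20634*, a gene on the same strand that covers it and had a log2 fold change of 1.01 (adjusted p = 0.0128 by the same test). How the reads were divided between these genes is uncertain. The call of *Hist2h3c1* was lost in limma on log2(TPM + 1), where the change of 0.76 was less than 2-fold.

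**Figure D3:**
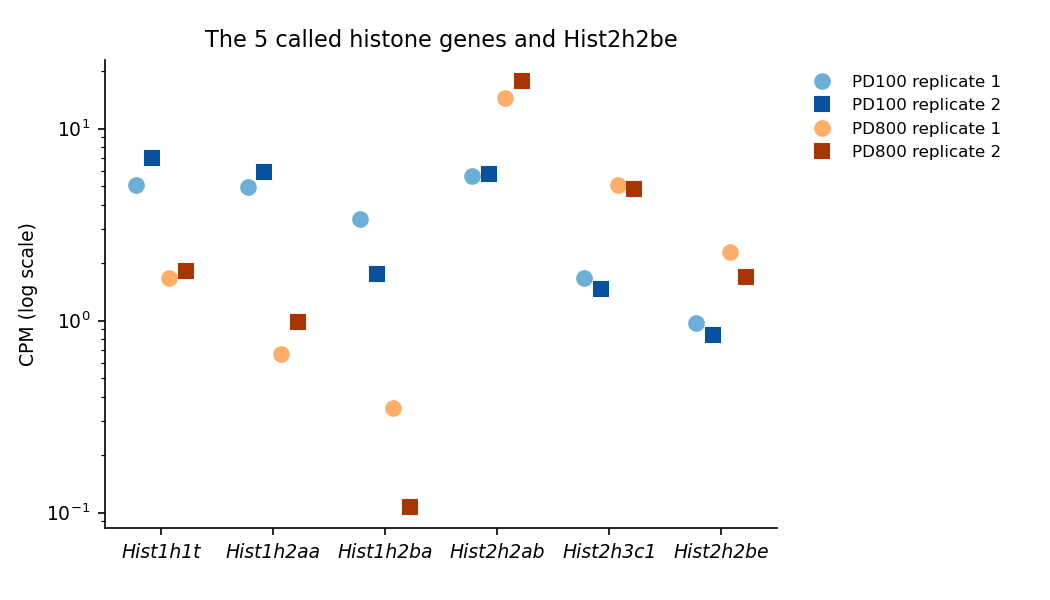
CPM on a log axis (vertical) in each of the 4 libraries for the 5 called canonical histone genes and *Hist2h2be*, which was not called (horizontal). For each gene the circles and squares of PD100 (blue) and PD800 (orange and brown) are separate, with PD800 below PD100 in the 3 testis variants and above it in the 3 Hist2 genes.

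The Hist2 cluster as a whole had a higher sum in PD800 cells in CPM, whereas in TPM the groups overlapped. Its 10 genes summed to 1299 and 1184 CPM at PD100 against 1504 and 1604 CPM at PD800. This was a log2 ratio of 0.32, which was 0.21 without the TMM factors and 0.11 in TPM. The TPM sums were 2588.1 and 2116.5 at PD100 against 2547.8 and 2538.7 at PD800. Of the 10 genes 9 had a positive log2 fold change. Groups did not overlap for 7, against 73.7% of all tested genes, and 4 had an adjusted p under 0.01, against 28.5%. Beside the 2 called genes, *Hist2h2ac* had 2397 and 1608 counts against 2952 and 2697 (log2 fold change 0.63, SE 0.11, adjusted p = 0.00603 by edgeR's test). *Hist2h2bb* had 8015 and 6911 counts against 9638 and 8322 (log2 fold change 0.38, SE 0.08, adjusted p = 0.00890 by the same test), and both changes were less than 2-fold. Without PD800 replicates 1 and 2 the values were 0.65 and 0.62 for *Hist2h2ac* and 0.36 and 0.41 for *Hist2h2bb*. Each of those fits leaves 1 PD800 library, so only the values are given. *Hist2h2bb* shares 45.2% of its windows with *Gm42743*, which overlaps it on the same strand.

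The other Hist2 genes did not pass an adjusted p of 0.01 in this fit. *Hist2h2be*, the H2B partner of *Hist2h2ac* at a distance of 238 bases, had 39 and 28 counts against 82 and 54, a log2 fold change of 1.13 (SE 0.26) with an adjusted p of 0.0141 by edgeR's test. It passed both limits without the filter on low counts (adjusted p = 0.000181 by edgeR's test). Its value ran from 0.90 to 1.34 over the fits without 1 library. *Hist2h2aa1* and *Hist2h2aa2*, a duplicated pair in which no window of the second is unique, had log2 fold changes of 0.39 and 0.53 with adjusted p-values of 0.0313 and 0.0873 by edgeR's test. The value of *Hist2h2aa2* was 0.92 without PD100 replicate 1 and 0.21 without PD100 replicate 2. The values of *Hist2h3c2*, *Hist2h3b* and *Hist2h4* were 0.20, -0.13 and 0.11, each with groups that overlapped, and each took the opposite sign in at least 1 fit without a library.

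No gene of the small clusters was called. *Hist4h4* (ENSMUSG00000096010.2, chr6:136801553-136804415), an H4 gene that stands apart from the clusters, had 6759 and 7096 counts at PD100 against 10413 and 10062 at PD800. It rose by a log2 fold change of 0.67 (SE 0.13, adjusted p = 0.00773 by edgeR's test), less than 2-fold. *Hist3h2a* (ENSMUSG00000078851.4, chr11:58954685-58956830) had 5018 and 4296 counts against 3185 and 2870 and fell by 0.51 on the log2 scale (SE 0.07, adjusted p = 0.00234 by the same test). An exon of *Trim17* overlaps it on the same strand and holds 29.8% of its windows. In fits without PD800 replicates 1 and 2, which leave 1 PD800 library, the values were 0.73 and 0.62 for *Hist4h4* and -0.50 and -0.51 for *Hist3h2a*. *Hist3h2ba*, the H2B gene of the same cluster, had 1517 and 883 counts against 1001 and 867, a log2 fold change of -0.23 that did not pass the test (adjusted p = 0.310 by the same test) and was 0.055 without PD100 replicate 1.

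In Hist1, by far the largest group, 3 of 55 tested genes had an adjusted p under 0.01 in this fit, the testis variants (5.45%, against 28.5% of all tested genes). The sum over Hist1 was 7884 and 8067 CPM at PD100 against 7713 and 8168 CPM at PD800, a log2 ratio of -0.01. The gene with the highest CPM of all members, *Hist1h1a*, had 19737 and 29112 counts against 14807 and 16526, a log2 fold change of -0.56 with an adjusted p of 0.144 by edgeR's test. Its value moved with the PD100 library left out, at -0.91 without PD100 replicate 1 and -0.10 without PD100 replicate 2. Each of those fits leaves 1 PD100 library, so only the values are given. *Hist1h1d*, the next H1 gene, had 15430 and 16194 counts against 17240 and 17460, a value of 0.24 with an adjusted p of 0.204. *Hist1h1c*, *Hist1h1b* and *Hist1h1e* lay between -0.09 and 0.10. The H4 genes *Hist1h4h* and *Hist1h4d* had values of 0.09 and -0.16, and the H3 gene *Hist1h3e* had 12252 and 10221 counts against 10483 and 10290, a value of 0.01 with a 95% interval from -0.20 to 0.21. The H2B gene *Hist1h2bb* had a value of 0.23, with an adjusted p of 0.216. None of these abundant genes passed the test in this fit, whereas without the filter on low counts *Hist1h1a* had an adjusted p of 6.17e-08 by edgeR's test with a change below 2-fold.

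*Hist1h4m*, chosen after its values were seen, had the lowest count of all H4 genes in 3 libraries but not in PD100 replicate 2. Its counts were 304 and 3265 at PD100 against 262 and 540 at PD800, and its log2 fold change of -2.13 (SE 1.07) had an adjusted p of 0.156 by edgeR's test. The gene was called lower without PD100 replicate 1 and without the filter on low counts, but not without PD100 replicate 2. Its near copy *Hist1h4n*, which holds 88.1% of its windows, had 12906 and 6653 counts at PD100 against 9860 and 8427 at PD800. In PD100 cells the library with the higher count of one thus had the lower count of the other.

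Near-identical members share reads, and RSEM had to divide them. Of the 69 members 26 had fewer than 50% unique windows, 7 had only unique windows, and the median was 66.1%. Among tested members the 25 with fewer than 50% unique windows differed between the PD100 replicates by a median of 0.69 on the log2 scale, and 1 of them had an adjusted p under 0.01. The 43 more unique members differed by a median of 0.32, and 8 of them had an adjusted p under 0.01. Both shares were below the 28.5% of all tested genes. How far shared reads set this spread was not tested.

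The replicate spread of the members was wide in PD100 cells and went by type. The median absolute log2 difference between replicates was 0.44 for the members in PD100 cells and 0.13 in PD800 cells, against 0.20 and 0.11 for all tested genes. In each group all 6 H1 genes had a higher CPM in the library numbered 2, and 17 of 18 H2B genes had a lower one. The summed H2B level of the second library relative to the first was -0.61 on the log2 scale in PD100 cells and -0.11 in PD800 cells, and that of H1 was 0.58 and 0.21. The libraries also differed in make-up. Mitochondrial genes took 15.4 and 11.01% of the counts at PD100 against 17.7 and 16.03% at PD800, and genes of the class misc_RNA, which include Rn7sk and the 7SL RNAs, took 6.46 and 9.41% against 9.12 and 10.01%. In both groups the library numbered 2 thus had the lower mitochondrial and the higher misc_RNA share, and the part of this in the histone differences was not tested.

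**Figure D4:**
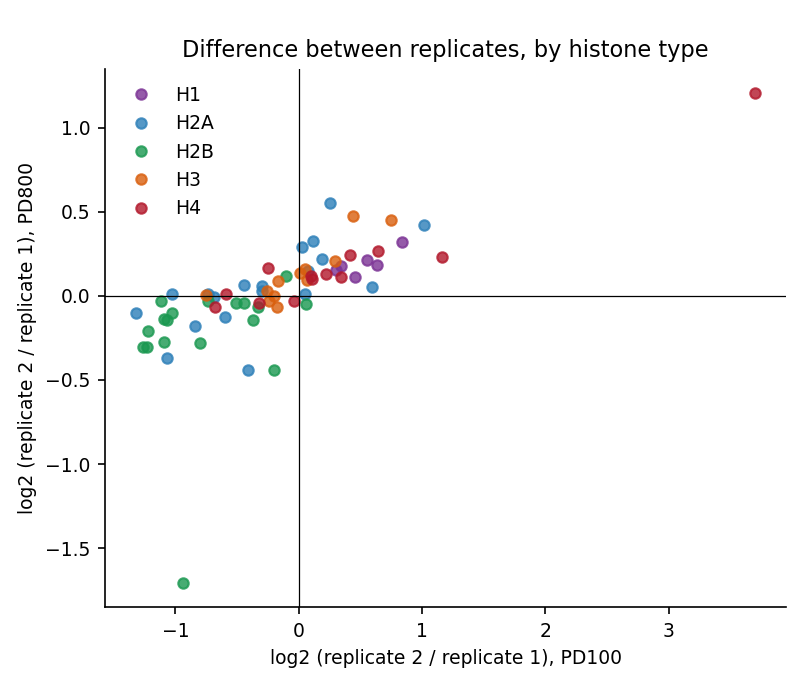
Log2 difference in CPM between replicate 2 and replicate 1 in PD100 cells (horizontal axis) and in PD800 cells (vertical axis) for the 68 tested canonical histone genes, 1 point per gene, coloured by type. The H2B genes lie to the lower left, the H1 genes to the upper right, and the far point at the right is *Hist1h4m*.

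Since canonical histone mRNA lacks a poly(A) tail, the way RNA was selected bears on the counts. The labels name total RNA and the study speaks of mRNA sequencing, and the selection is not given in the sources used here. Of 12 listed RNAs without a poly(A) tail or kept in the nucleus, 9 were tested and none was called, with a median log2 fold change of 0.19. Their summed level was 70781 and 100774 CPM at PD100 against 103219 and 112918 CPM at PD800. The *Rn7sk* RNA, which restrains transcription elongation, had a value of 0.63 (adjusted p = 0.0332 by edgeR's test), and *Malat1*, a nuclear RNA whose end is a triple helix, fell by 0.49 (adjusted p = 0.00668 by the same test). Members with over 100 annotated bases beyond the stem-loop, which would hold reads from longer transcripts, had a median log2 fold change of 0.02 (n = 23). For the 22 tested members without a match the median was 0.09. Some of those also have a long annotated end, as *Hist2h2be* with 2192 bases after the stop codon. The medians therefore do not separate long from short transcripts.

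Among the genes that make and process histone mRNA, 1 passed both limits. Of 31 listed genes 30 were tested, 1 was called higher, none was called lower, 9 had an adjusted p under 0.01 at any fold (30%, near the 28.5% of all tested genes), and the median log2 fold change was 0.11. *Cstf2*, a cleavage stimulation factor of 3′ end formation, had 3475 and 2950 counts at PD100 against 11543 and 10421 at PD800, a log2 fold change of 1.89 (SE 0.07, adjusted p = 4.88e-05 by edgeR's test). *Slbp*, which binds the stem-loop, had 3760 and 3506 counts against 3530 and 3361, a value of 0.03. *Npat* and *Casp8ap2*, which act in histone transcription at the histone locus body, had values of 0.08 and 0.16, and none of these 3 passed the test. *Lsm11*, a protein of the U7 snRNP, had a value of -0.41 (adjusted p = 0.0416 by the same test). *Eri1*, an exonuclease that trims histone mRNA ends and takes part in their decay, had 3749 and 3295 counts against 2198 and 1972 and fell by 0.64 on the log2 scale (adjusted p = 0.00112 by the same test), less than 2-fold. *Mif4gd*, whose product binds SLBP in histone mRNA translation, rose by 0.94 (adjusted p = 0.000564 by the same test). *Cpsf2*, a subunit of the cleavage complex, rose by 0.65 (adjusted p = 0.00114 by the same test), and both changes were less than 2-fold. The others with an adjusted p under 0.01 were *Hinfp* (0.41), *Ncbp2* (0.40), *Ccne2* (-0.83), *Ccne1* (-0.46) and *Lsm1* (-0.39). These genes, *Mif4gd* and *Cpsf2* were named after their values were seen. *Rnu7*, the U7 RNA itself, was at 0 in all 4 libraries, as was *Rnu11*. Whether these libraries could capture such RNAs was not tested.

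Other lists that bear on histone supply gave the following. Of 28 S phase genes none was called, the median was -0.09, and 7 had an adjusted p under 0.01 (25%, again near 28.5%). Of 20 G2 and M phase genes 2 were called higher, *Mki67* at 1.09 and *Aurka* at 1.28 (10%, against 6.28% of all tested genes), 11 had an adjusted p under 0.01 (55%, against 28.5%), and the median was 0.48. Among 12 replacement histone genes, most of which give polyadenylated mRNA and are not confined to S phase, 11 were tested. Of these, 2 were called higher, the linker histone *H1f0* at 1.17 and the H2A variant *H2afj* at 1.06 (18.2%, against the same 6.28%). An adjusted p under 0.01 was reached by 4 (36.4%), and the median was 0.41. Of 20 genes of histone chaperones and import none was called, 4 had an adjusted p under 0.01 (20%), and the median was -0.12. The difference between these lists and the canonical histones was not tested.

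Markers of cell state moved with the groups. Of 10 mESC markers 3 were called higher in PD800 cells, *Nanog*, *Esrrb* and *Klf4* (30%, against 6.28% of all tested genes). At any fold 5 had an adjusted p under 0.01 (50%, against 28.5%), and 9 had a positive value, with *Lin28a* at -0.35. The list summed to 2236 to 2548 CPM in PD100 cells and 3991 to 4098 CPM in PD800 cells. *Pou5f1* and *Sox2* were present in all 4 libraries. All 8 primitive endoderm markers were called lower (100%, against 8.81% of all tested genes), from 1763 to 2015 CPM to 153 to 161 CPM in sum. No defining marker was at 0, although *Foxa2* had 1 count in each PD800 library. Of 11 fibroblast markers 10 were tested and 6 were called lower (60%, against the same 8.81%), from 132 to 156 CPM to 27.0 to 28.9 CPM in sum. *Lum* was at 0 in 3 of the 4 libraries. Their part in the histone values was not tested.

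The histone genes were last set beside the genes around them, those within 1 Mb of each cluster that are not members. Around Hist2 (chr3:96219865-96270132) the median log2 fold change of 86 other tested genes was 0.55, with 10 called higher and 3 lower (11.6 and 3.49%, against 6.28 and 8.81% of all tested genes), and the members had 0.46. Around Hist3 (chr11:58948920-58956830) 47 other genes had a median of -0.45, with 1 called higher and 6 lower (2.13 and 12.8%), and the members had -0.37. Around *Hist4h4* 15 other genes had a median of 1.04, with 7 called higher and 1 lower (46.7 and 6.67%), and the member had 0.67. In these 3 places the median of the members thus had the sign of the median around them, although *Hist2h3b* did not. *H2afj*, the replacement H2A gene called higher, is a neighbour of *Hist4h4*. As in these places, the median of the members was closer to 0 than that of the genes around them at both Hist1 blocks. At the first block (chr13:21715763-22043676) the medians were 0.08 for the members and 0.53 for 21 others, and at the second (chr13:23531050-23934851) they were 0.02 for the members and 0.24 for 20 others, although *Hist1h2ba* at -3.45 and *Hist1h2aa* at -2.71 lay below the lowest of those others at -2.42. Some of the other genes overlap members and share windows with them, as *Gm20634* and *Gm42743* around Hist2 and *Trim17* around Hist3. Their values are therefore not independent of the members. These medians describe positions on the chromosome, and their difference was not tested.

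**Figure D5:**
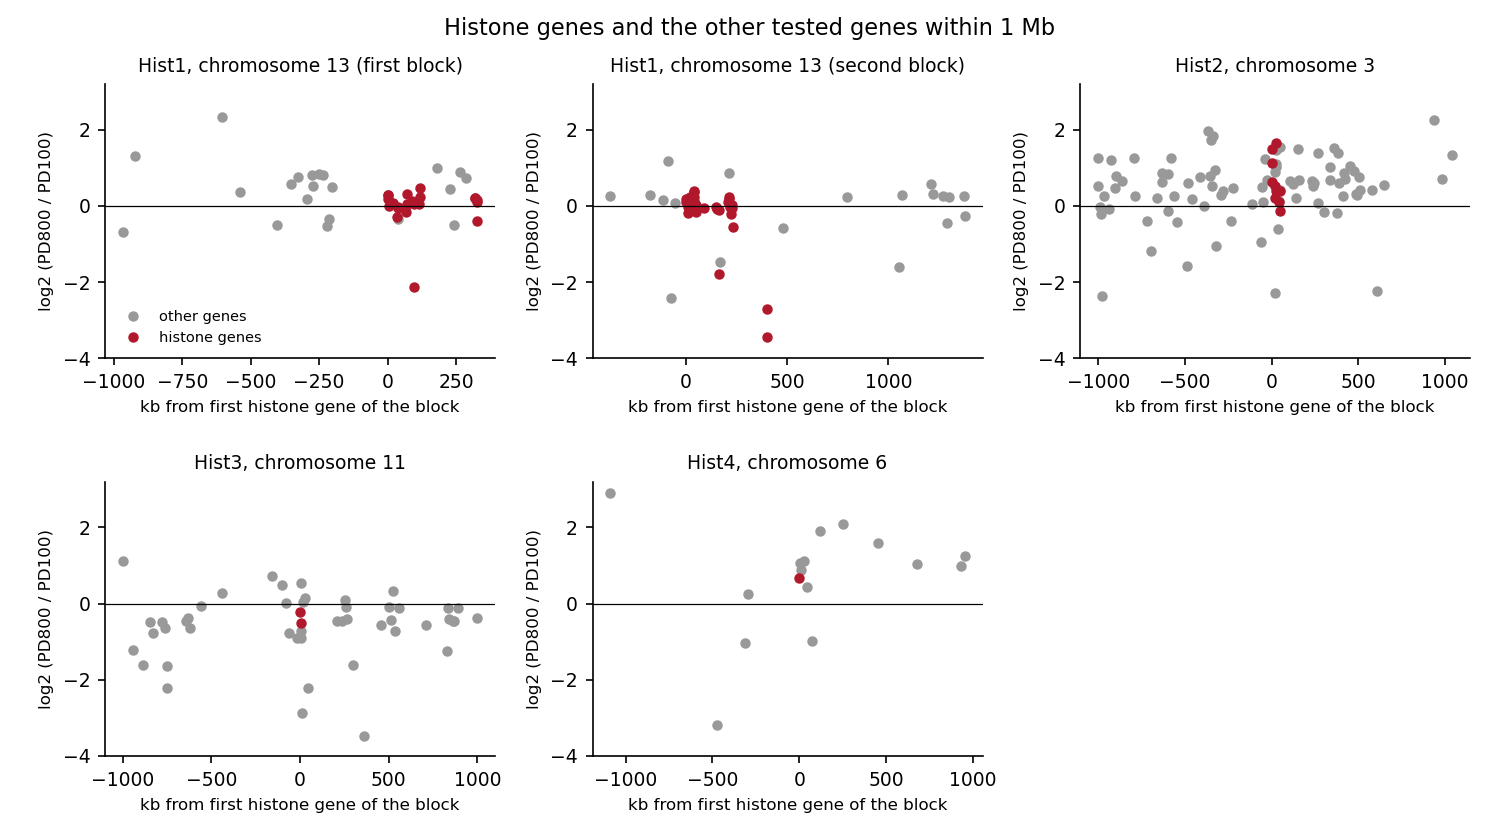
Log2 fold change of PD800 against PD100 (vertical axis) against distance in kb from the first histone gene (horizontal axis) for tested canonical histone genes (red) and other tested genes within 1 Mb (grey), with 1 panel for each of the 2 Hist1 blocks and for Hist2, Hist3 and Hist4. Red points lie near 0 in Hist1 apart from the 3 testis variants and *Hist1h4m*, mostly above 0 in Hist2 and in Hist4, and below 0 in Hist3.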

How the data were processed

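Bulk RNA of the Terc-/- mESC line DKO741 was sequenced at PD100 and PD800, with 2 libraries per group. According to the submitters' processing notes and the methods, the authors used STAR 2.5.3a to align read pairs to mm10 and RSEM 1.3.0 to quantify genes, and they used DESeq2 1.18.1 for their own comparison. The deposited expected count is an estimated number of read pairs left unscaled for depth, in which a read with several possible genes is split among them. The deposited TPM values were scaled by RSEM per gene length and to 1 common sum, and were used here for levels between genes and for alternatives. The annotation release is not given in the sources used here, nor is the strand setting of the gene counts, although the study draws RNA-seq reads of another region by direction. Coordinates, gene kinds and transcripts came from GENCODE M21 (GRCm38), and promoters from RefSeq (GRCm38.p6).

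The counts were rounded to integers and tested with edgeR 4.0.16 in R 4.3.3 (minimum count 10 in filterByExpr, TMM, glmQLFit and glmQLFTest with the group as the only term, Benjamini-Hochberg adjustment over all tested genes). A gene was called where the adjusted p was under 0.01 and the change more than 2-fold. The total counts and the floor of 3 counts (0.0743 to 0.0934 CPM per library) set the precision, for counting error only. Replicates differed by more than counting error (chi-square per degree of freedom 58.9 in PD100 and 9.25 in PD800). The procedure was tested on simulated data. Alternatives used DESeq2 1.42.0, limma 3.58.1, other normalisations, filters, thresholds and scales, the replicate block and fits without 1 library.

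The members and lists were chosen with earlier results of these data known. Named in full were, for each type, the 2 members with the highest CPM and the called members with the largest rise and fall. Every tested H1, Hist2, Hist3 and Hist4 gene was also named. From the lists came called regulators with *Slbp*, *Npat*, *Casp8ap2*, *Lsm11* and *Eri1*, and up to 4 called genes of other lists. Other uncalled list genes, such as *Mif4gd*, *Cpsf2*, *Rn7sk* and *Malat1*, lie outside this rule. Nothing establishes that the 2 libraries of a group were separate cultures beyond the description as biological duplicates, so p-values measure the spread between these libraries. Protein sequences were not used here.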

Additional observations from a re-analysis of the deposited data

How the results depend on the processing

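The call counts, 2 members higher and 3 lower, were the same under DESeq2's Wald test, DESeq2's size factors, upper-quartile normalisation and normalisation on protein-coding genes, and were 3 and 4 without a filter on low counts (4.35 and 5.80%, against 5.06 and 6.91% of all tested genes) and 2 and 2 with at least 10 counts in every library (2.99% each, against 6.33 and 8.21%). Limma called 1 higher on log2(TPM + 1) and 2 on log2(TPM + 0.1), and 2 lower on both. At an adjusted p under 0.05 with any fold, 7 were higher (10.3%, against 22.1% of all tested genes) and 5 lower (7.35%, against 23.6%). With a fold over 2 tested in the model, 0 were higher and 1 lower (*Hist1h2aa*), and with members summed by type 0 and 0 were called. Leaving out each library in turn gave 2 to 7 higher and 3 to 4 lower (over all tested genes 4.65 to 7.74% and 6.63 to 9.42%); the 7 came without PD100 replicate 1, which added *Hist1h2ad*, *Hist1h2bf*, *Hist1h2bp*, *Hist1h2br* and *Hist2h2be*. Each fit without 1 library leaves 1 library in a group, so its spread comes from the other group alone. The labels number the replicates alike but do not say that a number marks a pair. Deviations of same-numbered libraries correlated at 0.27 over all tested genes and 0.74 over the members, and with the replicate block 3 members were higher and 4 lower (4.41 and 5.88%, against 7.63 and 10.2% of all tested genes), the 5 calls being shared and *Hist2h2be* and *Hist1h4m* added. At any fold 15 members then had an adjusted p under 0.01 in place of 9 (22.1%, against 41.7% of all tested genes), 7 of the 10 in Hist2 (70%) among them, with *Hist2h2be* (adjusted p = 0.00243 by edgeR's test), *Hist1h1a* (-0.50, adjusted p = 0.00389 by edgeR's test), *Hist2h2aa1* and *Hist2h2aa2*. Over all genes the block called 1461 higher and 1956 lower.

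The log2 ratio of the summed counts moved by more than the replicate SD without TMM factors for all members (-0.060), H3 (-0.071), Hist1 (-0.12) and Hist3 (-0.56), and in TPM for all members (-0.17), H2A (0.023), H3 (-0.21), H4 (-0.31), Hist1 (-0.23), Hist2 (0.11) and Hist3 (-0.60). On the TPM scale the calls over all genes were 274 higher and 872 lower with a pseudocount of 1 and 454 and 1605 with 0.1, against 1202 and 1686, and 386 and 685 with the fold tested in the model.

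Changes of sign occurred in named members that were not called. *Hist1h3e* turned to -0.0053 with DESeq2 or its size factors, -0.0093 with at least 10 counts in every library and -0.23 on both TPM scales. *Hist1h4h* turned to -0.12, *Hist2h4* to -0.10 and *Hist1h1c* to -0.10 on both TPM scales. Fits without 1 library ranged from -0.057 to 0.078 for *Hist1h3e*, -0.097 to 0.29 for *Hist1h4h*, -0.18 to 0.44 for *Hist2h4*, -0.18 to 0.43 for *Hist1h1c*, -0.15 to 0.63 for *Hist2h3c2*, -0.48 to 0.055 for *Hist3h2ba*, -0.45 to 0.27 for *Hist2h3b*, -0.34 to 0.19 for *Hist1h1b* and -0.19 to 0.090 for *Hist1h1e*. The cause of these changes was not tested.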
